A study of Mus musculus with 3 samples.

Results

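A set of 10 genes of cholesterol efflux and lipid storage was followed in 3 RNA libraries of mouse macrophages. They were picked by symbol from the annotation in the deposited tables, and all 10 were found among 55536 annotated genes. The set comprised the lipid carriers Apoe and Apoc2, the sterol transporters Abca1 and Abcg1, the liver X receptors Nr1h3 and Nr1h2, the lipase Lpl, the lipid droplet coat gene Plin2 and the fatty acid binding proteins Fabp4 and Fabp5. The cells were macrophages grown from bone marrow of C57BL/6J mice. They were exposed for 12 h to Lipid A at 100 ng/ml, the membrane anchor of endotoxin and its active portion, left for 12 h after a washout, and given the same dose once more for 10 min. Ribosomal RNA was depleted from RNA of the cytosolic fraction before sequencing. The labels number the libraries as biological replicates 1, 2 and 3 of this single group, give all of them the same donor identifier and record neither sex nor age. Whether separate animals gave the libraries is not stated, so a p-value between libraries measures only the spread between these samples, which may be technical. Libraries of other treatments or fractions were not analysed here, and the values are levels in restimulated cells, not responses to Lipid A.

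Macrophages take up cholesterol from lipoproteins and dying cells and cannot break down its ring. Surplus cholesterol is oxidised to oxysterols, which bind the liver X receptors. These nuclear receptors pair with a retinoid X receptor and switch on Abca1, Abcg1 and Apoe, whose products move cholesterol out of the cell onto lipoprotein particles. What is not exported is esterified and kept in lipid droplets coated by perilipins, beside triglyceride made from fatty acids that lipoprotein lipase releases and fatty acid binding proteins carry.

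Start regions were available for 6 of the 10 genes (Apoe, Apoc2, Abca1, Nr1h2, Nr1h3 and Plin2), in 9 windows of 300 bases from RefSeq on GRCm38.p6, the assembly also called mm10. Each window holds 250 bases before a transcription start and 50 from it on. Of these, 4 are shown as examples that hold short motifs of transcription factors, and their start sites are set beside those of the transcripts described below. Windows not shown also held matches, such as TATAAA in an Apoe window, and not every match in those shown is marked. Capitals mark matches on either strand. In all 14 motifs were searched, and those described, like the windows shown, were chosen after the sequences were seen. In Abca1 the capitals mark a loosened repeat, the letters GGTNA and GGTCA with 5 bases of any kind between them, and the TATA box letters TATAAA. Its strict form, a pair of AGGTCA copies 4 bases apart, is known to be bound by liver X receptors. In Plin2 and Apoc2 they mark the nuclear receptor hexamer AGGTCA, and in Nr1h2 the ETS-type motif CCGGAAG, where neighbouring matches overlap.
Abca1, chr4:53159846-53160145, minus strand: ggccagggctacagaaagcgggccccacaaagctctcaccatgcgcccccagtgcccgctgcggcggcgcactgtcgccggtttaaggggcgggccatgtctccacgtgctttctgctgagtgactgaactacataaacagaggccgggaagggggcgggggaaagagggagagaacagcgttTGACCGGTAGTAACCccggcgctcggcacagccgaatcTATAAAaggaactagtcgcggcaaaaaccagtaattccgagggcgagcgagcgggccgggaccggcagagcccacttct
Plin2, chr4:86670010-86670309, minus strand: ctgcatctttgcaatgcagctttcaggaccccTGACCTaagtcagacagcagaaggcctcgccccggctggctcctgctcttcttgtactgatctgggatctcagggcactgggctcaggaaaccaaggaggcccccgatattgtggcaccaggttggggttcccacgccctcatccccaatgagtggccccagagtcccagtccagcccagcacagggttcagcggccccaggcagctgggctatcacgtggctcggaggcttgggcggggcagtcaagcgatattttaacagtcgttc
Apoc2, chr7:19677892-19678191, minus strand: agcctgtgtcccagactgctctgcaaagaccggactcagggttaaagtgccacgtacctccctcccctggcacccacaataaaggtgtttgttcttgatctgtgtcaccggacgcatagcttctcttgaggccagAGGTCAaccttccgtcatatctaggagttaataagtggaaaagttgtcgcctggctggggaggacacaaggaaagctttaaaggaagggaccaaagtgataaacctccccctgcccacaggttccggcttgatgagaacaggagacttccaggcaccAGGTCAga
Nr1h2, chr7:44553916-44554215, minus strand: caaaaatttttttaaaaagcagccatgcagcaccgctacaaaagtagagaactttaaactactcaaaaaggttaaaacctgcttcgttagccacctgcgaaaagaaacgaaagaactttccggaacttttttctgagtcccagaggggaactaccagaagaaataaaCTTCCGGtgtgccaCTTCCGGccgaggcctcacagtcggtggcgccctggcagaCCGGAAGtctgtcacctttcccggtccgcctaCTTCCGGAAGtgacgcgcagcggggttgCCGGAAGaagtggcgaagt
Counted from the start site as position 0, the loosened repeat of Abca1 begins at position -67, where it reads on the opposite strand, and its TATAAA, present in 13.6% of all windows, at -29. The loosened repeat occurred in 0.207% of 32851 RefSeq windows of this length and the strict repeat in 0.0152%, and none of the 9 windows held the strict form. AGGTCA began at position -218 in the Plin2 window and at -115 and 42 in the Apoc2 window, and 16.3% of all windows held it. CCGGAAG had 6 matches in the Nr1h2 window, of which those at positions 3 and 6 overlap. At least 1 match occurred in 8.86% of all windows and 6 or more in 0.00913%. A pair of AGGTCA copies 1 base apart, known for peroxisome proliferator-activated receptors, was in none of the 9 windows and in 0.0396% of all. A match is a description of letters and not a binding site.

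The libraries held 32108408, 53165872 and 57117456 expected counts, estimates of reads per gene, in replicates 1, 2 and 3. The 10 genes took 0.543%, 0.64% and 0.685% of them, with 304 counts for the least covered value (Apoc2 in replicate 1) and 109784 for the best (Apoe in replicate 3). Levels are given as TPM, a length-corrected abundance with the same total in each library. The structural RNA 7SL took 52.2%, 62.8% and 56.7% of that total, and nuclear-encoded protein-coding genes 34.3%, 27.8% and 27.8%. Genes are therefore compared with each other on TPM, and libraries with each other on CPM, counts relative to the library's total after TMM scaling. Replicate 1 stood apart from the others: its CPM of Malat1, an RNA kept in the nucleus, was 10.5-fold that of the mean of the other libraries. All 8 defining macrophage markers reached 10 TPM in every library, led by Lyz2 (2989 ± 197 TPM, SD, n = 3), Cd68 (670 ± 65.2) and Adgre1 (653 ± 160) and with Mertk lowest at 41.1 ± 8.75.

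Markers of other cells that express some of these genes were near 0. Fabp4, Lpl and Plin2 are also adipocyte genes, but of 8 adipocyte markers 7 lay under 1 TPM in every library. Adipoq, Cfd, Cidec, Lep and Adrb3 had 0 counts throughout, for which the limit of 3 counts is at most 0.0991 TPM (counting error only), although the read-based tables described below give Adrb3 at least 1.05 TPM in every library. The exception was Lipe, the hormone-sensitive lipase that macrophages also make, at 7.65 ± 1.56 TPM, and Retn (0.01 ± 0.0173) and Plin1 (0.00333 ± 0.00577) followed. The list's summed TPM ran from 6.23 to 9.34. All 6 hepatocyte markers lay under 1 TPM: Ttr had 0.00667 ± 0.0115 TPM and Alb, Apoa1, Apob, Serpina1a and Fgb had 0 counts. Of 7 stroma markers 6 lay under 1 TPM, with Kitl at 2.71 ± 0.715, Pdgfrb at 0.0233 ± 0.0115, Col1a1 at 0.01 ± 0.01 and Cxcl12 at 0 counts. All 7 lymphocyte markers lay under 1 TPM, the highest being Cd79a (0.0233 ± 0.0252), Ms4a1 (0.0167 ± 0.0208) and Cd3d (0.01 ± 0.01), with Cd3e at 0 counts. Of 7 neutrophil markers 6 lay under 1 TPM, with S100a8 at 3.04 ± 1.01, Ngp at 0.473 ± 0.0551, Camp at 0.0767 ± 0.0814 and Ly6g at 0 counts.

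Both liver X receptor genes were expressed, and Nr1h3 varied far more between libraries than Nr1h2. Nr1h3 (ENSMUSG00000002108.10, chromosome 2, 91184061 to 91202834) encodes LXR alpha, the form enriched in liver and macrophages. Its TPM was 48.7, 21.8 and 28.6 in replicates 1, 2 and 3. The mean was 33.0 ± 14.0 TPM (SD, n = 3), and 25.2 without replicate 1. Nr1h2 (ENSMUSG00000060601.13, chromosome 7, 44549616 to 44553951), the broadly expressed LXR beta, stood at 18.5, 17.7 and 17.03 TPM, or 17.7 ± 0.753. These values lie close together, and no library of Nr1h2 reached the lowest of Nr1h3. Within libraries Nr1h3 exceeded Nr1h2 by 2.63-fold, 1.23-fold and 1.68-fold. On CPM, where libraries can be compared, Nr1h3 had 111, 59.6 and 81.1, a spread of 1.87-fold with replicate 1 highest, against 42.8, 50 and 50.8 for Nr1h2, a spread of 1.19-fold. In bulk RNA, fewer cells that make a transcript and less of it per cell cannot be told apart.

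The sterol transporters stood above their receptors. Abca1 (ENSMUSG00000015243.4, chromosome 4, 53030787 to 53159895) hands cholesterol and phospholipid to lipid-poor apolipoprotein A-I. Its level was 56.3, 61.3 and 68.2 TPM in replicates 1, 2 and 3 (61.9 ± 5.97). Abcg1 (ENSMUSG00000024030.7, chromosome 17, 31057675 to 31117988), which promotes efflux to mature lipoprotein particles, stood at 85.8, 65.1 and 78.7 TPM (76.5 ± 10.5). Their ranges overlapped, yet Abcg1 was the higher gene within each library, by 1.52-fold, 1.06-fold and 1.15-fold. On CPM Abca1 was lowest in replicate 1 (827, 1070 and 1237) and Abcg1 in replicate 2 (692, 629.9 and 792), while both were highest in replicate 3. So few libraries cannot show whether the transporters vary together.

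Apoe was among the most abundant messages of the cytosolic RNA and Apoc2 was the lowest of the 10 genes, although they lie in the same gene cluster on chromosome 7. Apoe (ENSMUSG00000002985.16, chromosome 7, 19696109 to 19699188) encodes apolipoprotein E, which macrophages secrete as an acceptor of cellular cholesterol and a ligand of lipoprotein receptors. It stood at 1161, 918 and 1307 TPM (1129 ± 196), rank 19 of 22015 nuclear-encoded protein-coding genes. Replicate 3 was highest on CPM too, at 1911 against 1359 and 1346 in replicates 1 and 2. Apoc2 (ENSMUSG00000002992.17, chromosome 7, 19671579 to 19677941) encodes the cofactor that activates lipoprotein lipase. It stood at 16.7, 9.72 and 10.8 TPM (12.4 ± 3.77), and the mean was 10.3 TPM without replicate 1. Apoe exceeded Apoc2 by 69.4-fold, 94.4-fold and 121-fold within the libraries.

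Lpl, whose enzyme frees fatty acids from lipoprotein triglyceride, was the member with the lowest relative value in replicate 1. Lpl (ENSMUSG00000015568.16, chromosome 8, 68880491 to 68907448) stood at 82.6, 121 and 121 TPM, or 108 ± 22.2, and at 121 TPM without replicate 1. On CPM it had 470, 818 and 844, so that replicates 2 and 3 differed by only 1.03-fold and replicate 1 lay 1.77-fold below their mean. Its activator Apoc2 was the reverse, with 9.78, 6.97 and 7.58 CPM.

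Plin2 (ENSMUSG00000028494.12, chromosome 4, 86648386 to 86670060), the perilipin that coats droplets in most cell types, was the third most abundant member. Its TPM was 218, 213 and 156 in replicates 1, 2 and 3 (196 ± 34.4). On CPM it had 459.7, 537 and 411, highest in replicate 2 and lowest in replicate 3. Plin3, a perilipin that moves between cytosol and droplets, stood at 11.2 ± 0.681 TPM, and Plin2 exceeded it by 18.7-fold, 18.4-fold and 15-fold.

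The fatty acid binding proteins, relatives near each other on chromosome 3, differed widely in level. Fabp5 (ENSMUSG00000027533.10, chromosome 3, 10012548 to 10016607), the epidermal form, was the highest member at 1395, 1315 and 1078 TPM (1263 ± 165), rank 17 of the protein-coding genes. Fabp4 (ENSMUSG00000062515.3, chromosome 3, 10204088 to 10208576), the adipocyte form also made by macrophages, stood at 35.2, 38.4 and 19.7 TPM (31.1 ± 10.0). Fabp5 exceeded Fabp4 by 39.7-fold, 34.2-fold and 54.9-fold. On CPM the spread of Fabp4 was 1.92-fold (38.3, 45.6 and 23.8), the widest of the 10 genes, and that of Fabp5 1.21-fold (1573, 1756 and 1453). Replicate 3 was the lowest on CPM for both.

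**Figure D1:**
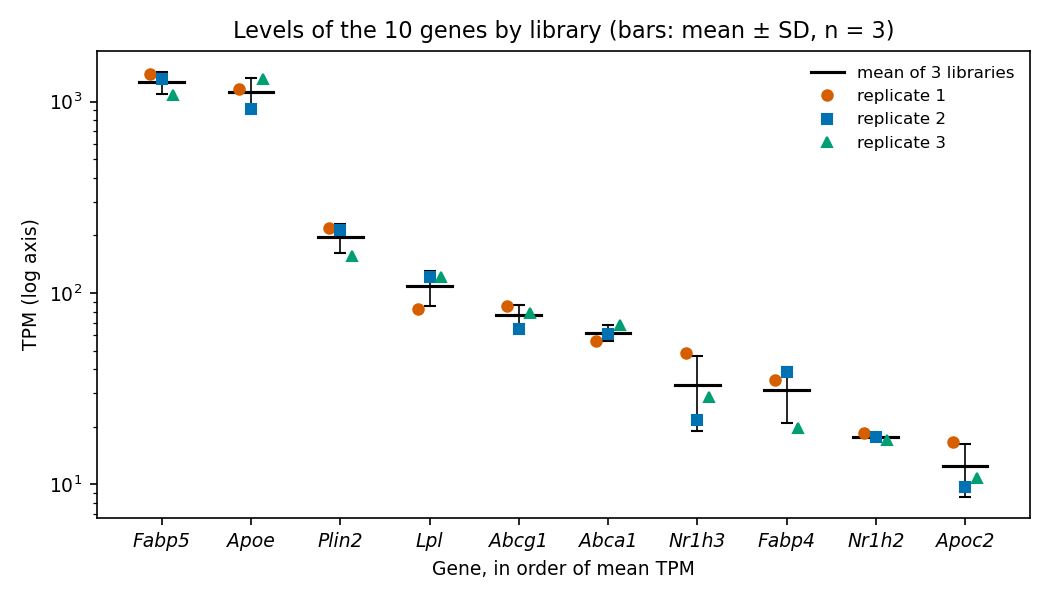
TPM on a log axis of the 10 genes in each of 3 libraries, in order of mean; black lines are means and bars SD (n = 3). Fabp5 and Apoe sit near 1263 and 1129 TPM and overlap, and Apoc2 is lowest at 12.4.

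By mean TPM the order was Fabp5, Apoe, Plin2, Lpl, Abcg1, Abca1, Nr1h3, Fabp4, Nr1h2 and Apoc2. The libraries' ranges overlapped for 4 neighbouring pairs, namely Fabp5 and Apoe, Lpl and Abcg1, Abcg1 and Abca1, and Nr1h3 and Fabp4. Within libraries Abcg1 exceeded Abca1 in 3 of 3, by as little as 1.06-fold. In each other overlapping pair the first gene was higher in only 2 of 3 libraries, so the order of those pairs is not settled. The ranges lay apart for Apoe and Plin2, Plin2 and Lpl, Abca1 and Nr1h3, Fabp4 and Nr1h2, and Nr1h2 and Apoc2. At 10 TPM in every library stood 9 of the 10 genes, all but Apoc2, against 17.3% of 22015 nuclear-encoded protein-coding genes. The median of the 10 genes was 69.2 TPM, and that of the 9110 such genes with at least 1 TPM in every library was 8.71. The second quantification deposited by the authors, made directly from the reads, gave lower TPM for all 10 genes, from 554 ± 313 for Fabp5 to 6.02 ± 4.64 for Apoc2, in the same order. In it replicate 1 was the highest library for each gene (Abca1 38.0, 21.3 and 19.8 TPM), which the first quantification did not show, so which library is high or low is read from CPM. On read-based TPM 6 of the 10 genes reached 10 TPM in every library.

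For 5 pairs of related genes the ratio within a library was also tested. The direction was the same in 3 of 3 libraries for Nr1h3 over Nr1h2 (mean log2 ratio 0.81 ± 0.55), Abcg1 over Abca1 (Abca1 over Abcg1 -0.30 ± 0.27), Apoe over Apoc2 (6.53 ± 0.40), Fabp5 over Fabp4 (Fabp4 over Fabp5 -5.39 ± 0.35) and Plin2 over Plin3 (4.11 ± 0.18). With 3 libraries a two-sided exact sign-flip permutation test cannot go below p = 0.25, and each pair had that p, also after Benjamini-Hochberg adjustment over the 5 pairs. The ratios of the last 3 pairs were many times their SD, whereas that of Abca1 to Abcg1 was close to its SD. Without replicate 1 the mean log2 ratio of Abca1 to Abcg1 was -0.15 and that of Nr1h3 to Nr1h2 0.53.

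**Figure D2:**
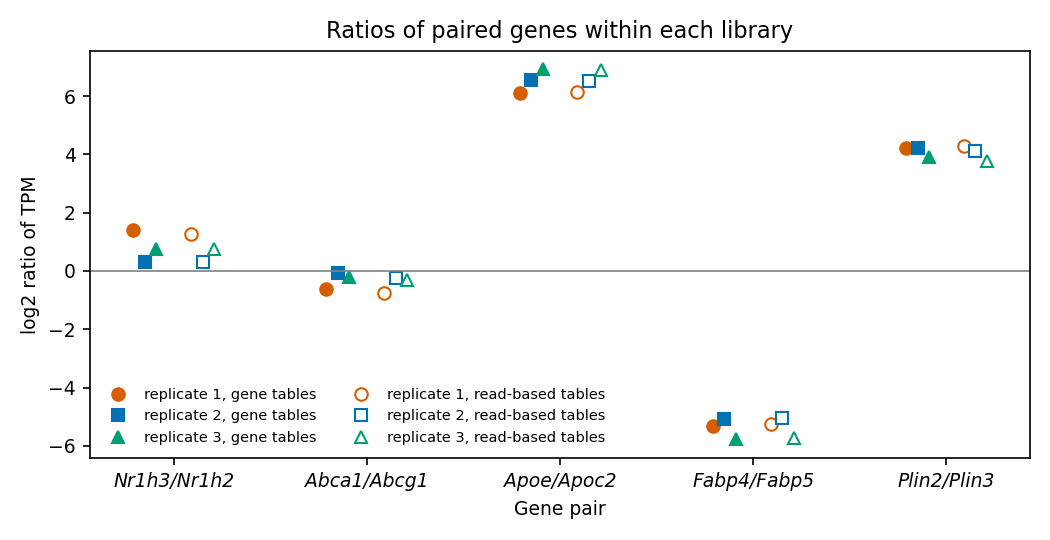
log2 ratio of TPM for 5 gene pairs in each library, from the gene tables (filled) and the read-based tables (open). Every pair keeps its sign in all 3 libraries in both tables, and Abca1/Abcg1 lies nearest 0 (mean -0.30 in the gene tables).

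All 10 genes varied between the libraries by more than counting error (edgeR likelihood ratio test with Poisson variance, Benjamini-Hochberg). The background was nearly as high: 71.7% of 12515 genes tested were called, and 80.6% of the 8708 with at least 300 counts on average (a minimum chosen after seeing the data), so the count says little about these genes. The largest adjusted p in edgeR were 1.01e-04 for Apoc2 and 7.43e-07 for Nr1h2, followed by 1.38e-86 for Fabp4. Without replicate 1, 8 of the 10 genes and 40.5% of all genes were called, with Apoc2 (edgeR adjusted p = 0.415) and Nr1h2 (0.846) lost, and without replicate 3 Apoe was lost (0.128). An estimate of its size is the biological coefficient of variation from edgeR, which pulls each gene's value toward that of genes of like abundance. This moderated value was largest for Lpl (24.5%), Fabp4 (23.6%) and Nr1h3 (22.3%) and smallest for Nr1h2 (12.7%). Its median was 19.8% over the 10 genes and 17.2% over all genes tested. The observed spread on CPM had another order, with Fabp4 (1.92-fold) and Nr1h3 (1.87-fold) above Lpl (1.80-fold). Without replicate 1 the moderated medians were 11.8% and 10.4%, and Lpl stood at 9.84%, Nr1h3 at 11.9% and Fabp4 at 20.9%. Lpl differed by only 1.03-fold on CPM between replicates 2 and 3, so its 9.84% is not its observed spread.

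No library was high or low for the whole set. Relative to the mean of the other libraries, the median log2 CPM difference of the 10 genes was -0.03 in replicate 1, 0.09 in replicate 2 and 0.06 in replicate 3, and that of all genes tested lay between -0.01 and 0.00. In replicate 1 only Nr1h3 (0.68), Apoc2 (0.43) and Fabp4 (0.22) were higher, while Lpl (-0.82), Abca1 (-0.48), Apoe (-0.24) and Nr1h2 (-0.24) were lower. Abcg1 (-0.030), Plin2 (-0.032) and Fabp5 (-0.022) were lower by little. In replicate 3 Apoe (0.50), Lpl (0.45), Abca1 (0.40), Abcg1 (0.26) and Nr1h2 (0.13) were higher, and Fabp4 (-0.81), Plin2 (-0.28), Fabp5 (-0.19) and Apoc2 (-0.12) were lower. The SD of this difference over all genes was 0.61 in replicate 1 and 0.34 in replicate 3. The part of the nuclear RNA of replicate 1 in its differences was not tested.

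**Figure D3:**
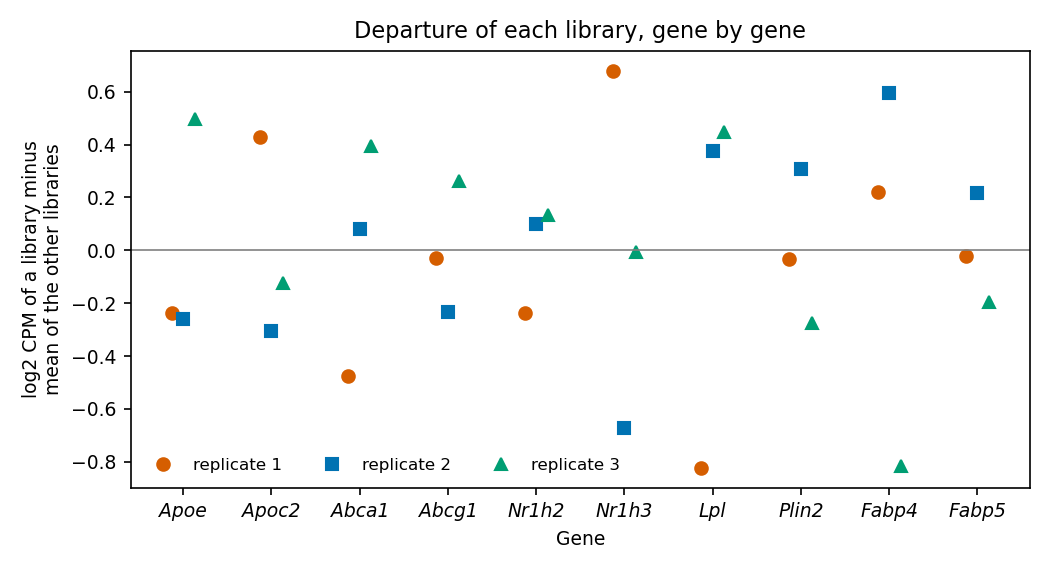
log2 CPM of each library minus the mean of the other libraries, for the 10 genes. Replicate 1 is lowest for Lpl (-0.82) and highest for Nr1h3 (0.68), and replicate 3 is lowest for Fabp4 (-0.81).

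Most of the 10 genes were carried by a single annotated transcript. The share of a gene's TPM in its leading transcript was at least 98% for Fabp5-201 (99.7% ± 0.355), Abca1-201 (99.7% ± 0.468), Lpl-201 (99.1% ± 0.695), Fabp4-201 (98.97% ± 1.22), Apoc2-201 (98.9% ± 1.99) and Abcg1-201 (98.4% ± 1.24), SD over 3 libraries. Plin2-201 held 83.0% ± 1.54, and the non-coding Plin2-208, annotated as a processed transcript, 9.997% ± 0.281. By these estimated shares the receptors were mixtures. Nr1h3-201 held 61.5% ± 7.02 and Nr1h3-202 20.4% ± 3.37, with Nr1h3-204 at 9.88% ± 2.41, and Nr1h2 was split between Nr1h2-201 (41.7% ± 1.09), Nr1h2-203 (22.3% ± 1.22) and Nr1h2-202 (19.9% ± 6.39), all protein coding. These Nr1h2 transcripts have 10 exons each and 1999, 1988 and 1948 bases. How well reads separate transcripts so alike in length and position was not tested. Apoe was led by the coding Apoe-209 (63.3% ± 5.74), with Apoe-202, a processed transcript, at 23.9% ± 4.74 and the coding Apoe-206 at 12.0% ± 1.16. The read-based quantification named the same leading transcript for all 10 genes, with the largest differences for Abcg1-201 (86.8% ± 3.89) and Plin2-201 (73.0% ± 7.08).

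The transcript shares bear on the start regions printed above. The Abca1 window belongs to the start of Abca1-201, with 99.7% of the gene's TPM, and the Plin2 window lies within 1 base of the start of Plin2-201. The Apoc2 window belongs to Apoc2-203, which held 3.45%, 0% and 0% of the gene in replicates 1, 2 and 3. Apoc2-201, the transcript that carried the RNA, starts 1077 bases downstream, so the hexamers in the window do not lie at the start in use by these estimates. The start site of the Nr1h2 window lies 16 bases upstream of that of Nr1h2-201, and no annotated transcript begins at it. Of the Apoe windows, the one nearest to the leading start belongs to Apoe-206 and lies 180 bases from that of Apoe-209.

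Transcripts classed as retained introns or processed transcripts, which the annotation does not take to be translated, were annotated for 9 of the 10 genes, all but Apoc2. Their summed share was highest in replicate 1 for 9 of these 9 genes, where 77.8% of 3079 protein-coding genes with such transcripts and at least 10 TPM showed the same. In Apoe they held 29.4%, 20.4% and 22.3% of TPM in replicates 1, 2 and 3, in Plin2 11.9%, 10.95% and 10.2%, in Nr1h3 9.93%, 6.76% and 5.3% and in Nr1h2 7.65%, 2.89% and 0.73%. In Fabp4 the share was 2.43%, 0.19% and 0.47% and in Lpl 1.03%, 0.06% and 0.04%. Abca1, Abcg1 and Fabp5 stayed under 1% in each library. The read-based shares in replicate 1 were higher for all of the 9 genes but Fabp4 (2.40%). They were 35.0% for Apoe, 18.2% for Nr1h2, 14.1% for Plin2, 14.0% for Nr1h3, 3.13% for Abca1, 3.07% for Lpl and 2.73% for Abcg1. Replicate 1 was again the highest for each of the 9 genes. The median of the 3079 genes was 4.23%, 0.91% and 0.87%, and 8.99%, 1.48% and 1.33% on read-based shares. This rise in replicate 1 accompanied its high Malat1, Neat1 (5.17-fold), Xist (70.96-fold) and Kcnq1ot1 (46.5-fold), and their part in it was not tested.

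**Figure D4:**
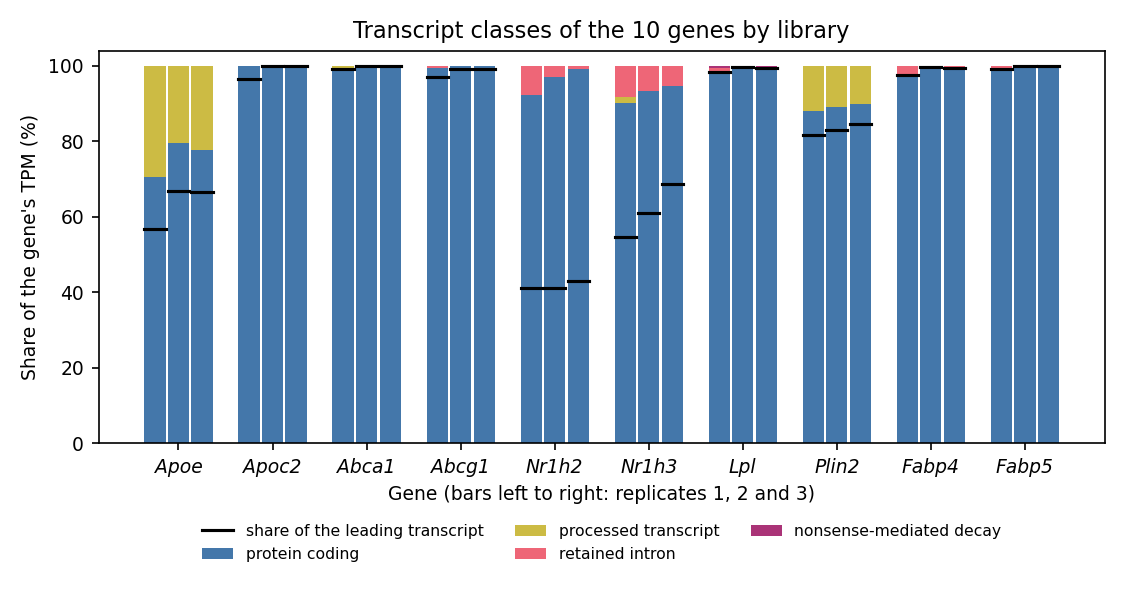
Share of each gene's TPM by transcript class in replicates 1, 2 and 3 (stacked bars, left to right), with a black line at the share of the leading transcript. Apoe and Plin2 have a visible processed-transcript share (29.3% and 11.9% in replicate 1), and Nr1h2 and Nr1h3 a retained-intron share that is largest in replicate 1.

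Related genes were present in part. Of 72 other genes of sterol and lipid handling, grouped in 8 lists, 37 reached 1 TPM and 23 reached 10 TPM in every library, and 32 lay under 1 TPM in every library. The variation test covered 45 of them and called 40, or 88.9%. Of all genes 71.7% were called, and of those with at least 300 counts on average 80.6%. The median of the 72 related genes was 1.73 TPM.

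The main partner of the liver X receptors was present at a lower level than a corepressor. Ncor1, which helps to hold such receptors silent without ligand, stood at 47.0 ± 4.61 TPM (SD, n = 3), and the partner Rxra at 13.3 ± 0.609. Of 9 genes 6 reached 1 TPM and 3 reached 10 TPM, and Rxrg, Ppara and the bile acid receptor Nr1h4 had 0 counts, which allows up to 0.0512 TPM. Of 10 other known targets of the receptors 8 reached 1 TPM and 6 reached 10 TPM. Pltp, a phospholipid transfer protein, led at 176 ± 43.3 TPM, followed by the stearoyl-CoA desaturase Scd2 at 80.2 ± 22.6 and the survival factor Cd5l at 75.7 ± 4.67. Abcg4, a relative of Abcg1, was lowest at 0.03 ± 0.03.

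Apolipoproteins other than Apoe and Apoc2 were low. None of the 8 reached 1 TPM in every library. Apoc1, which neighbours Apoe, stood at 1.46 ± 0.589 TPM, Apod at 0.4 ± 0.314 and Apoa2 at 0.283 ± 0.200. Apoc3, Apoa1, Apoa4 and Apob had 0 counts, which allows up to 0.255 TPM. Genes that move and store sterol inside the cell were higher. Of 10 genes 6 reached 10 TPM, led by the lysosomal cholesterol carrier Npc2 (298 ± 54.0), the lysosomal acid lipase Lipa (170 ± 17.2) and Soat1, which esterifies cholesterol for droplets (156 ± 23.5), with the plasma enzyme Lcat lowest (0.0133 ± 0.0231).

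Among partners of lipoprotein lipase and lipoprotein receptors 4 of 8 reached 10 TPM. Among them were the receptor Lrp1 (92.2 ± 5.17 TPM) and the fatty acid and lipoprotein receptor Cd36 (35.4 ± 7.05). Gpihbp1, the anchor of the lipase on capillary cells, had 0 counts, which allows up to 0.0934 TPM. Droplet proteins other than Plin2 were sparse, and 8 of 11 lay under 1 TPM. The seipin gene Bscl2 (22.4 ± 1.55), Plin3 (11.2 ± 0.681) and Hilpda (1.42 ± 0.384) were highest, and Cidea and Cidec had 0 counts, which allows up to 0.0743 TPM.

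Of 8 genes of triglyceride synthesis and lipolysis 7 reached 1 TPM and 1 reached 10 TPM in every library. The triglyceride lipase Pnpla2 led at 12.8 ± 0.603 TPM, then the phosphatidate phosphatase Lpin2 at 12.2 ± 4.01 and the lipase cofactor Abhd5 at 11.6 ± 1.79, with Dgat2 lowest at 0.177 ± 0.116. Of 8 other fatty acid binding protein genes only Fabp3, the heart form, reached 1 TPM, at 43.7, 18.9 and 24.97 TPM in replicates 1, 2 and 3, a range that overlaps that of Fabp4. Fabp7 followed at 0.0733 ± 0.0404 TPM. Of the rest, Fabp12 had 1 count in all and Pmp2, Fabp1, Fabp2, Fabp6 and Fabp9 had 0 counts, with a limit of at most 0.271 TPM.

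**Figure D5:**
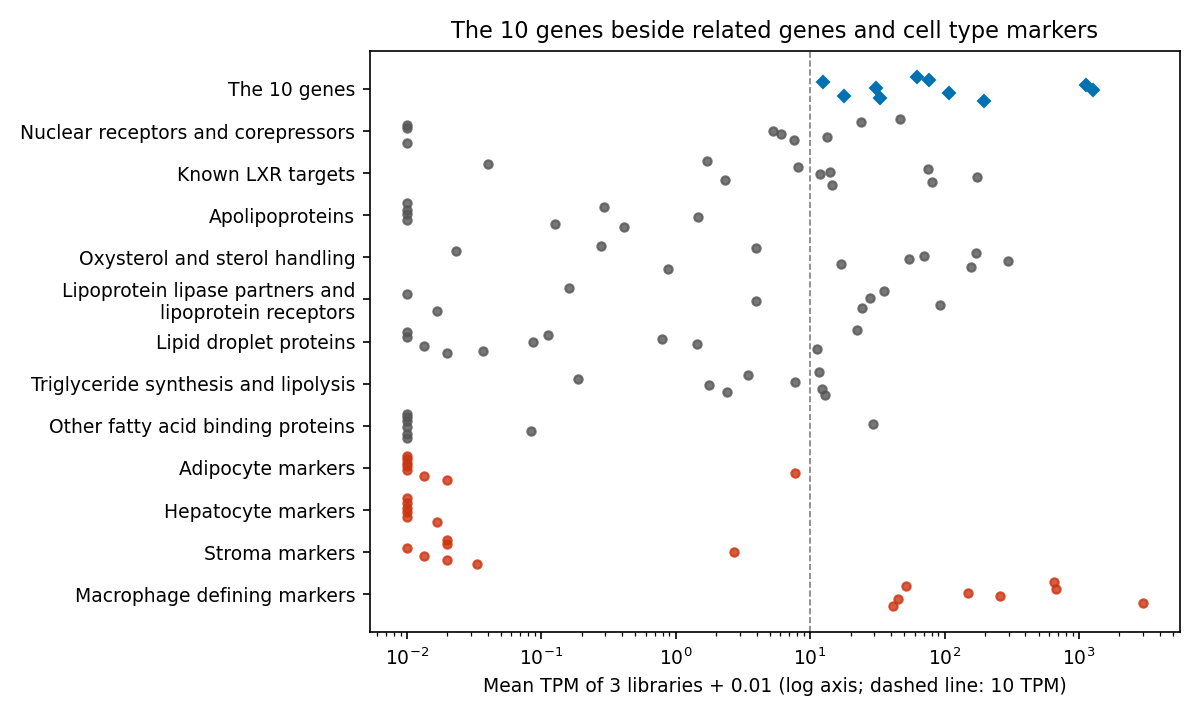
Mean TPM over 3 libraries, plus 0.01, on a log axis for the 10 genes (diamonds), 8 lists of related genes (grey) and marker lists (red). The 10 genes all lie right of the dashed 10 TPM line by their means, whereas 7 of 8 adipocyte and 6 of 6 hepatocyte markers lie under 1 TPM.

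Expected counts of 9 of the 10 genes were whole, and only Fabp5 had fractional ones, which mark reads divided between entries. Whole counts do not show that the reads fit no other entry. Its leading transcript matched 5 annotated processed pseudogenes at 93.6% to 98.3% identity over at least 200 bases. Those took 53.6, 138 and 121 expected counts in replicates 1, 2 and 3, beside 49093, 94501 and 83477 for Fabp5. The annotation also holds Gm44805, a coding gene that overlaps Apoc2 on the same strand and shares its transcript sequence at 100% identity, and it was assigned 0 counts in every library. The match covers 626 of the 631 bases of Apoc2-201. Most Apoc2 reads could therefore fit both genes, and their assignment to Apoc2 alone rests on the estimate. A stretch of Lpl resembles the coding gene Trim5 at 91.7% identity over 204 bases, and Trim5 had 540, 925 and 889 counts. The strand setting of the counting was not stated, so antisense reads could not be told apart. The only annotated gene that overlaps a member on the opposite strand was the small nuclear RNA gene Gm23390 at Nr1h3, with 0 counts in every library.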

How the data were processed

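RNA levels were measured in 3 libraries of 1 group. The authors deposited expected counts and TPM per gene and transcript, from reads aligned to the transcriptome (mm10, GENCODE M21; per the notes deposited with each library), under RSEM's column names per the file headers. The transcript share is a deposited percent of the gene's TPM, per the file headers. Deposited estimated counts and TPM in a further table came directly from the reads, with kallisto's column names. Versions and strand setting: not given in the sources used here.

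Entries that name no gene, 0.435%, 0.134% and 0.0823% of counts in replicates 1, 2 and 3, were left out. Expected counts were rounded for edgeR 4.0.16 in R 4.3.3 (filterByExpr, TMM, dispersion 0, library against intercept, Benjamini-Hochberg over all genes tested, threshold 0.05). The test was run on counts simulated with Poisson variance. Apart from genes changed on purpose, these held no spread beyond counting error, so the run cannot show how the test behaves on real libraries. Log2 CPM used a prior count of 2. DESeq2 1.42.0 gave alternative size factors. Similar transcripts were found with BLAST+ 2.17.0 at 90% identity over 200 bases. Intervals from 3 counts cover counting error only.

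The genes and lists were chosen with earlier results of these data known. Named genes are the 10 members, the 3 highest and the lowest of each list, and transcripts of at least 10% beside the leading one. Also named, after their values were seen, are genes at 0 counts, those with similar sequence, Plin2-208 and Nr1h3-204 (just under 10%) and Apoc2-203; the list of 4 nuclear-retained RNAs is named whole. Some genes that this rule would name are not reported here. Protein sequences were not used here.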

Additional observations from a re-analysis of the deposited data

How the results depend on the processing

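Of 66 alternative values of the summary results, 64 kept their direction and stayed within the limits set. These limits were wide. A count could change by up to 1.5-fold, a median departure by less than its SD between libraries, and a pair ratio had only to keep its sign. The fall from 9 to 6 of the 10 genes at 10 TPM on read-based TPM therefore passed. So did a mean log2 ratio of Abca1 to Abcg1 of -0.15 without replicate 1, against -0.30 with all libraries. Without replicate 1 the number of all genes called as varying fell from 8972 to 5137, and across the leave-one-out fits it ran from 5137 to 7688. With read-based TPM, which is lower for these genes, 11 in place of 23 related genes reached 10 TPM in every library. Of the 10 genes, 8 to 10 were called when a replicate was left out, and 10 under each other scaling, filter, test or quantification tried. Among single-gene values 3 calls were lost, those of Apoc2 and Nr1h2 without replicate 1 and of Apoe without replicate 3. Moves by more than their SD were seen for 24 levels or transcript shares, 20 of them levels on read-based or rescaled TPM. Rescaled TPM is taken relative to nuclear-encoded protein-coding genes alone, so each level rises by construction. The cause of the other moves was not tested. The sign of the departure of Nr1h3 in replicate 3 (-0.01) turned with library totals (0.01) and with read-based counts (0.02). No paired analysis was possible because the labels hold a single group. Depth limits the low genes most: Apoc2 rests on 304 to 433 counts a library.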
